A study of Mus musculus with 23 samples.

Results

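The gene models described here are 8 of the 56748 rows of a count table of mouse melanoma tumors, namely Gm10800, Gm10801, Gm10722, Gm10717, Gm10718, Gm10715, Gm11168 and Gm17535. They are predicted genes that hold major satellite repeats, throughout their span in 7 and in a part of it in Gm10801. The list was chosen by its repeat content and by measured values: Gm10800 was among the genes called higher in tumors injected with norcantharidin, and the other models were picked with results of the same tumors known. The intratumoral values are therefore given as a description without a test, and the intraperitoneal comparisons were tested. Results of the intraperitoneal tumors were known too when the list was made, so those tests are not independent of the choice. The 23 tumors grew from B16-F1 cells, an established mouse melanoma line, implanted under the skin of the right flank of DBA/2J mice of 6 to 8 weeks. In the intraperitoneal (IP) groups, CONTROL_IP received saline, PTX_IP received pentoxifylline (PTX) at 60 mg/kg, NCTD_IP received norcantharidin (NCTD) at 3 mg/kg and MIX_IP received both drugs at these doses, with 2 tumors each. In the intratumoral (IT) groups the agents were injected into the tumor, with DMSO for CONTROL_IT (4 tumors), PTX at 60 mg/kg for PTX_IT (3 tumors), NCTD at 3 mg/kg for NCTD_IT (4 tumors) and both for MIX_IT (4 tumors). PTX is a methylxanthine derivative and NCTD a demethylated analog of cantharidin. All groups share the implanted line, which is a single source of tumor cells. Route and batch label coincide in these tumors and cannot be told apart.

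Major satellite DNA is a short AT-rich sequence repeated head to tail in long arrays beside the centromeres of mouse chromosomes. These arrays are packed into constitutive heterochromatin, in which the SUV39H enzymes methylate histone H3, HP1 proteins bind the mark and DNMT1 maintains DNA methylation. The repeats are transcribed at a low level, and most copies are missing from or collapsed in the genome assembly, so reads from many copies can pile up on the few that an annotation holds. A rise of such reads can therefore come from any copy, and the gene name says only where the aligner placed them.

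All 8 models are listed as protein-coding. On GRCm39, the build of the table, Gm10800 lies on the minus strand at chr2:98496892-98497646, and Gm10801 lies on the plus strand of the same chromosome at chr2:98492582-98494428. The other 6 lie on the plus strand in a single array near the start of the assembled chromosome 9, with Gm10722 at chr9:3000922-3002330, Gm11168 at chr9:3003346-3006948, Gm10718 at chr9:3023547-3025218, Gm10717 at chr9:3025417-3033289, Gm17535 at chr9:3034599-3035805 and Gm10715 at chr9:3036877-3038316. The table gives no exon positions, so whether a given stretch is exonic or intronic is not known here. Within 50 kb of a member the table holds 4 other rows, all on chromosome 9. Of these, Gm10719 had 99 counts over the 23 tumors, Gm10720 had 13, and Gm10721 and the microRNA gene Mir101c had 0. To show the repeat on which the counts fall, the first 234 bases of Gm10800 (chr2:98497413-98497646, minus strand) are printed with the best matching stretch of Gm10801 (chr2:98494159-98494392, plus strand) and of Gm10722 (chr9:3002061-3002294, plus strand), read from GRCm39 in the 5′ to 3′ direction of each gene. Capitals mark the bases that differ from the unit of Gm10800.
Gm10800: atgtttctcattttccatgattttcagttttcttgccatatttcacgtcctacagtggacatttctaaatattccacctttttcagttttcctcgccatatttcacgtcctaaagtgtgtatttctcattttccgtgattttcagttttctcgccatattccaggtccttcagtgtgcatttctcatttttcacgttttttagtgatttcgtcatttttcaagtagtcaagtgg
Gm10801: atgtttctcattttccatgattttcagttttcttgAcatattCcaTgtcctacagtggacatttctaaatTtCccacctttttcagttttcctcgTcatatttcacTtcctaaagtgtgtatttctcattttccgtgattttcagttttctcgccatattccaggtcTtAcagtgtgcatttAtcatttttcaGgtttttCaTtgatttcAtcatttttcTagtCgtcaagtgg
Gm10722: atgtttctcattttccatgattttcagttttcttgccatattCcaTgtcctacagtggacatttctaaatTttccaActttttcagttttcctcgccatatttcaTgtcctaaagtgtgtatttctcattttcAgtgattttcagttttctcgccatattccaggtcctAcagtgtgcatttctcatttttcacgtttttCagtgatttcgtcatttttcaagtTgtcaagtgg

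A repeat length of 234 bp was found in 7 of the 8 models by comparing every base with the base a fixed distance further on. At a distance of 234 bp, 67.2% of the bases of Gm10800 were equal, against a median of 30.6% over all distances from 100 to 400 bp. Gm10800 had a second peak of 64.7% at 251 bp, where Gm10722 had 31.9%. In Gm10722 the share at 234 bp was 82.5%, and in the 7 models other than Gm10801 it ranged from 67.2% to 91.6%, highest in Gm10715. Gm10801 showed no such repeat, with a highest share of 33.7% at 118 bp. Matches to the unit covered 34.5% of the span of Gm10801, against at least 97.2% in each of the other 7. The best matching stretch of each model was close to that of Gm10800, with 93.2% identity for Gm10801, 96.2% for Gm10722 and Gm11168, 95.7% for Gm10717, 95.3% for Gm10718 and Gm17535, and 94.9% for Gm10715. Every span was rich in A and T, from 63.7% in Gm10801 to 65.4% in Gm10717. On the strand of the gene T was the most frequent base in all 8, from 39.7% to 47.6%, and A stood between 17.8% and 23.9%.

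**Figure D1:**
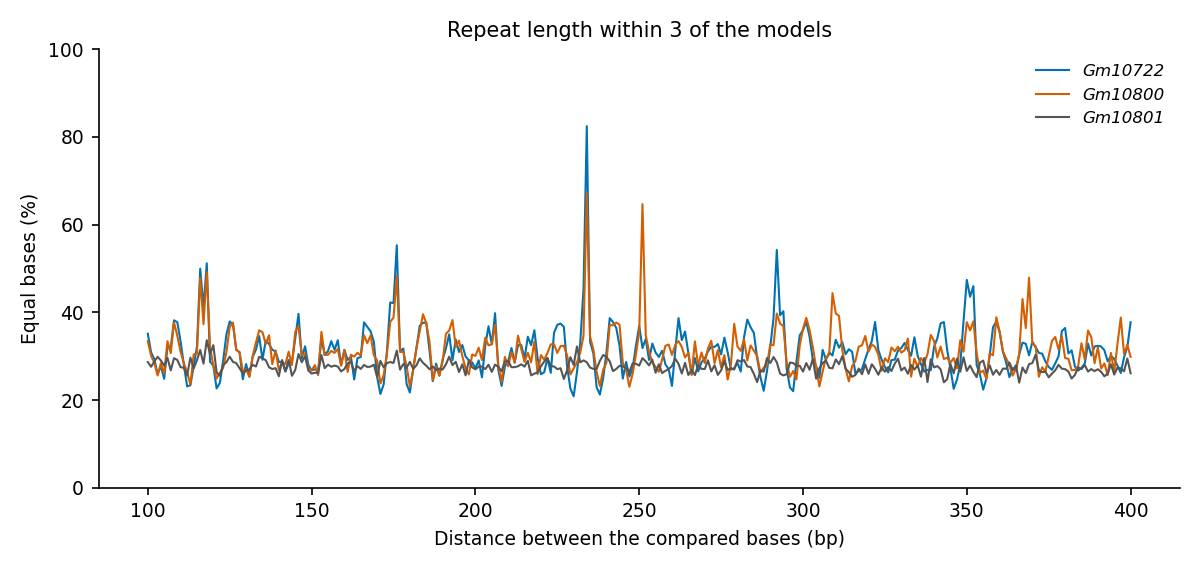
Share of equal bases (percent, y axis) between positions a fixed distance apart (bp, x axis) within the spans of Gm10800, Gm10801 and Gm10722. Gm10800 and Gm10722 peak at 234 bp, at 67.2% and 82.5%, and Gm10801 stays at or below 33.7%. Gm10800 has a second peak of 64.7% at 251 bp.

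A search of GRCm39 with the unit found 753 matches of at least 100 bp and 80% identity. Of these, 409 (54.3%) lay on 7 unplaced sequences and 220 (29.2%) lay in the array of 38403 bp on chromosome 9 that holds 6 of the 8 models. The models also differ in how much of their sequence can be told apart from other copies. Of the windows of 150 bp, the length of a read of this study, 100% occurred once in the genome for Gm10800 and 82.4% for Gm10801. The share was 62.6% for Gm10722, 62.8% for Gm10718, 50.8% for Gm10717, 50.7% for Gm10715, 49.6% for Gm11168 and 26.1% for Gm17535. With windows of 50 bp it was 56.5% for Gm10800, 57.1% for Gm10801 and between 5.96% and 17.7% for the chromosome 9 models. How the counting treated reads that align to several places, and whether it used the strand, is not given in the sources used here. The 8 rows are therefore uncertain as separate genes, and their sum is given beside them.

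The libraries were made from the 3′ end of messenger RNA, and 2861578 to 6702374 reads per tumor were counted on genes (median 4013068). Levels are counts scaled to a common library size with TMM factors (CPM), and 3 counts in a tumor, taken as the floor, correspond to 0.448 to 1.03 CPM. Reads without molecular identifiers are not independent molecules, so this floor and the intervals below cover counting error only. The 7 pigment cell markers, which define the labelled cell type, were all among the tested genes, with a summed level of 15260 to 37057 CPM. Nothing in the labels says that tumors of a group came from separate cultures of cells. Apart from the edgeR fits with no filter on low counts, p-values measure the spread between these tumors. In bulk tumors, fewer cells of a type and less RNA per cell cannot be told apart.

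The 8 models together held 91873 counts over the 23 tumors, and 85904 of them (93.5%) were on Gm10800, which ranked 172 among all rows of the table. Gm10722 followed with 3203 counts (3.49%), Gm10801 with 1223 (1.33%) and Gm11168 with 896 (0.975%). Gm10717 had 364 counts and Gm10718 had 174, each in 20 of 23 tumors. Gm17535 had 79 counts in 13 tumors, and Gm10715 had 30 counts in 9 tumors. The filter on low counts was passed by 6 of the 8 models in each route, and Gm17535 and Gm10715 were not tested in the filtered edgeR fits.

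The summed level of the 8 models differed widely between tumors, also between tumors of the same group. The share of all counts ran from 0.00843% (Wilson 95% interval 0.00767 to 0.00926%) in CONTROL_IP replicate 1 to 0.328% (0.323 to 0.334%) in NCTD_IP replicate 6. That is 1 count in 11865 against 1 in 304.6. The order of the group means was NCTD_IT with 2039 ± 816 CPM (SD, n = 4), NCTD_IP with 1659 ± 2223 CPM (SD, n = 2), PTX_IT with 1340.1 ± 617 CPM (SD, n = 3) and PTX_IP with 1209 ± 1016 CPM (SD, n = 2). Below them stood MIX_IT with 545 ± 364 CPM (SD, n = 4), CONTROL_IT with 288 ± 82.8 CPM (SD, n = 4), CONTROL_IP with 179 ± 135 CPM (SD, n = 2) and MIX_IP with 133 ± 6.95 CPM (SD, n = 2). Every group overlapped in range with its neighbour in this order. By their means the single drug groups headed the order in both routes, and the groups given both drugs stood nearer the controls.

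**Figure D2:**
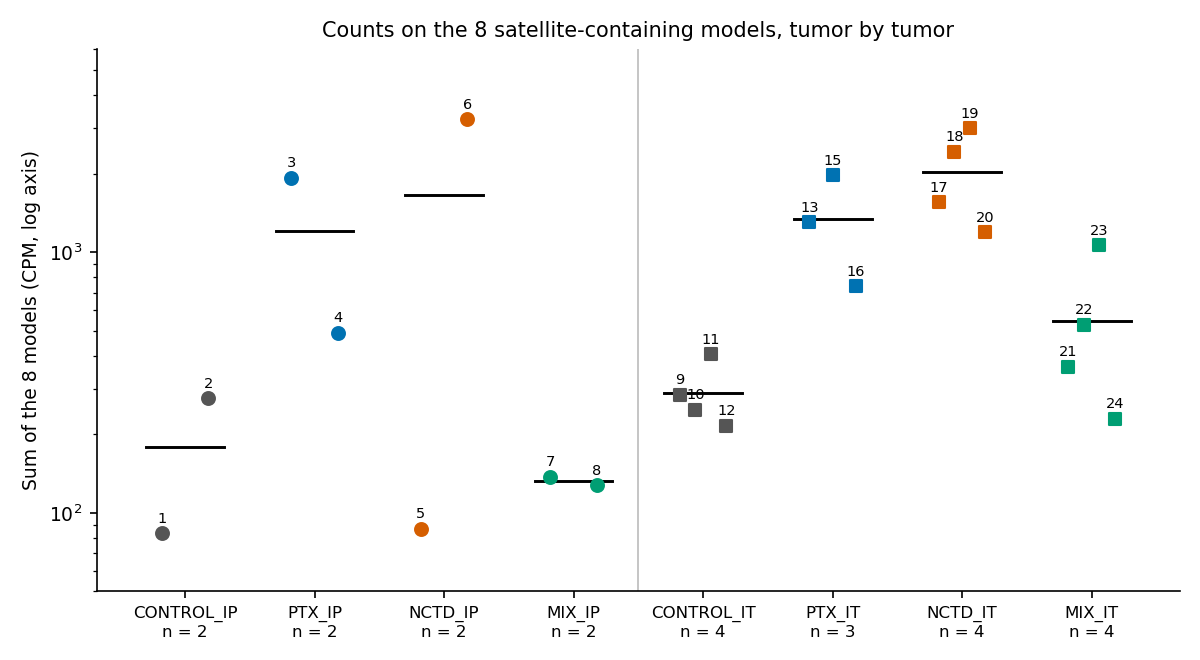
Summed level of the 8 models (CPM, log axis) in each tumor, by group. Points are tumors with their replicate number, circles are IP and squares are IT, and lines are group means. All 4 NCTD_IT tumors and all 3 PTX_IT tumors lie above the highest CONTROL_IT tumor, while the 2 NCTD_IP tumors stand 37.2-fold apart.

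In the IP tumors, the question was whether a drug given into the peritoneum changed the satellite counts of the tumor. Gm10800 was at 78.7 and 252 CPM in the CONTROL_IP tumors (replicates 1 and 2). It was at 1796 and 459 CPM in the PTX_IP tumors (replicates 3 and 4), at 82.2 and 3046 CPM in the NCTD_IP tumors (replicates 5 and 6), and at 131 and 121 CPM in the MIX_IP tumors (replicates 7 and 8). PTX_IP replicate 3 and NCTD_IP replicate 6 were far above all other IP tumors, PTX_IP replicate 4 was the next, and NCTD_IP replicate 5 was near the lowest control. The ranges of PTX_IP and CONTROL_IP did not overlap, and those of NCTD_IP and of MIX_IP overlapped with that of the controls. Of the genes tested, 15.7% had every PTX_IP tumor above every CONTROL_IP tumor.

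On the log2 scale Gm10800 differed by 3.24 (standard error, SE, 1.28) in NCTD_IP, 2.77 (SE 1.25) in PTX_IP and -0.38 (SE 1.19) in MIX_IP, each against CONTROL_IP. The 3 comparisons share the CONTROL_IP tumors. In edgeR's quasi-likelihood test the adjusted p was 0.999, 0.906 and 0.999, so that 0 of the 3 differences passed the test over all genes. The sum of the 8 models differed by 3.21 (SE 1.28) in NCTD_IP, 2.75 (SE 1.25) in PTX_IP and -0.42 (SE 1.19) in MIX_IP, with the same adjusted p to 3 digits. Without NCTD_IP replicate 6 the value of the sum turned to -1.02, without PTX_IP replicate 3 it fell to 1.45, and without CONTROL_IP replicate 2 that of MIX_IP turned to 0.68. Those values rest on a group of 1 tumor, which is assumed to vary like the other groups. With no filter on low counts, the sum passed the test in NCTD_IP and in PTX_IP (adjusted p = 1.35e-37 and 7.34e-28 in edgeR) at nearly the same size, 3.21 and 2.75, with SE of 0.24 and 0.23. These SE lie far below the 1.28 and 1.25 of the filtered fit, while the 2 NCTD_IP tumors stood 37.2-fold apart. The unfiltered p-values therefore do not measure the spread between tumors, and nothing is read from them. Of the 8 models, 5 passed without the filter in NCTD_IP (Gm10800, Gm10801, Gm10722, Gm10717 and Gm11168), 4 in PTX_IP (the same without Gm11168) and 0 in MIX_IP. The adjusted p of these models in edgeR was between 6.08e-38 and 0.000468 in NCTD_IP and between 6.16e-28 and 0.0137 in PTX_IP. Over all 23653 genes of the unfiltered fit, 71, 71 and 51 were called in NCTD_IP, PTX_IP and MIX_IP. The filtered fit tested 12424 genes.

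Gm10722, the model with the second highest count, followed Gm10800 in the IP tumors. It was at 2.32 and 12.6 CPM in CONTROL_IP, at 77.9 and 17.4 CPM in PTX_IP, at 2.80 and 93.3 CPM in NCTD_IP, and at 3.91 and 3.36 CPM in MIX_IP, in the order of the replicate numbers. It differed from the control by a log2 value of 2.66 (SE 1.23) in NCTD_IP, 2.64 (SE 1.23) in PTX_IP and -1.06 (SE 1.45) in MIX_IP. The same 2 tumors were high as for Gm10800. Gm10801, which lies 2463 bp from Gm10800, was at 0.775 and 5.39 CPM in CONTROL_IP, at 23.4 and 7.84 CPM in PTX_IP, at 0.280 and 38.3 CPM in NCTD_IP, and at 1.04 and 2.80 CPM in MIX_IP. In NCTD_IP replicate 5 it had 1 count, which is under the floor.

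All 6 tested models had a higher fitted level in NCTD_IP than in CONTROL_IP, with log2 fold changes between 2.53 (Gm10718) and 4.12 (Gm10717) and a median of 2.65, against -0.01 over all genes tested. In edgeR, 0 of the 6 were called at an adjusted p below 0.05, and 0% of the 12424 genes tested were called. An unadjusted p below 0.05 was reached by 3 models (Gm10800, Gm10717 and Gm11168) in edgeR, and by 0 in DESeq2. Over all genes, 446 of the 12424 tested reached it in edgeR, and 288 genes did in DESeq2. Every treated tumor was above every control tumor for 1 of the 8 models, Gm17535, which was not in the filtered fit, where 16.3% of the genes tested have that order. For PTX_IP the 6 values lay between 1.53 (Gm10718) and 3.45 (Gm10717), with a median of 2.47 against 0.01 over all genes. Again 0 of 6 were called, against 0% of all genes. An unadjusted p below 0.05 was reached by 0 of the 6 in edgeR, against 659 of the 12424 genes tested. DESeq2 gave a p for all 8 models, and 5 were below 0.05 (Gm10800, Gm10801, Gm10717, Gm11168 and Gm17535), against 243 genes of the table. Every PTX_IP tumor was above every CONTROL_IP tumor for 6 of the 8 models (5 of the 6 tested), against 15.7% of the genes tested. For MIX_IP 1 value was above 0 (Gm10717, 0.00096) and 5 were below, with a median of -0.89 against -0.01 over all genes. In this comparison 0 were called, against 0% of all genes. An unadjusted p below 0.05 was reached by 0 models in edgeR and in DESeq2, where 365 and 324 genes reached it. There 0 of the 8 models had every treated tumor above the controls, against 17% of the genes tested, and 2 had every treated tumor below, against 18.9%. The low models moved with very few reads: Gm10718, lowest in MIX_IP at -4.51 (SE 3.02), had 0 counts in both MIX_IP tumors and 1 and 6 in the controls, so that this fitted value depends on the prior count.

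In the IT tumors the drugs were injected into the tumor itself. Gm10800 was at 267, 233, 376 and 204 CPM in the CONTROL_IT tumors (replicates 9 to 12). It was at 1209.6, 1844.5 and 694 CPM in the PTX_IT tumors (replicates 13, 15 and 16) and at 1459.8, 2258, 2793 and 1109 CPM in the NCTD_IT tumors (replicates 17 to 20). In the MIX_IT tumors (replicates 21 to 24) it was at 339, 491, 989.9 and 215 CPM. Every NCTD_IT and PTX_IT tumor was above every CONTROL_IT tumor, and MIX_IT ran from within the range of the controls up to that of PTX_IT. The highest MIX_IT tumor was below the lowest NCTD_IT tumor, a difference that was not tested.

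The log2 fold change of Gm10800 against CONTROL_IT was 2.82 (SE 0.44) in NCTD_IT, 2.20 (SE 0.45) in PTX_IT and 0.91 (SE 0.42) in MIX_IT. The 3 values share the CONTROL_IT tumors and describe the measure on which Gm10800 was picked. For the sum of the 8 models they were 2.82 (SE 0.44), 2.21 (SE 0.45) and 0.92 (SE 0.42). The mean of the sum was 7.07-fold that of CONTROL_IT in NCTD_IT, 4.65-fold in PTX_IT and 1.89-fold in MIX_IT. Without MIX_IT replicate 23, the tumor with the highest level of its group, the log2 fold change of MIX_IT fell to 0.36. Leaving out any other tumor of MIX_IT or CONTROL_IT kept it at 0.80 or above. Leaving out any tumor of the groups compared kept the value of NCTD_IT at 2.59 or above and that of PTX_IT at 1.83 or above. Tumors of the remaining IT groups were not left out.

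**Figure D3:**
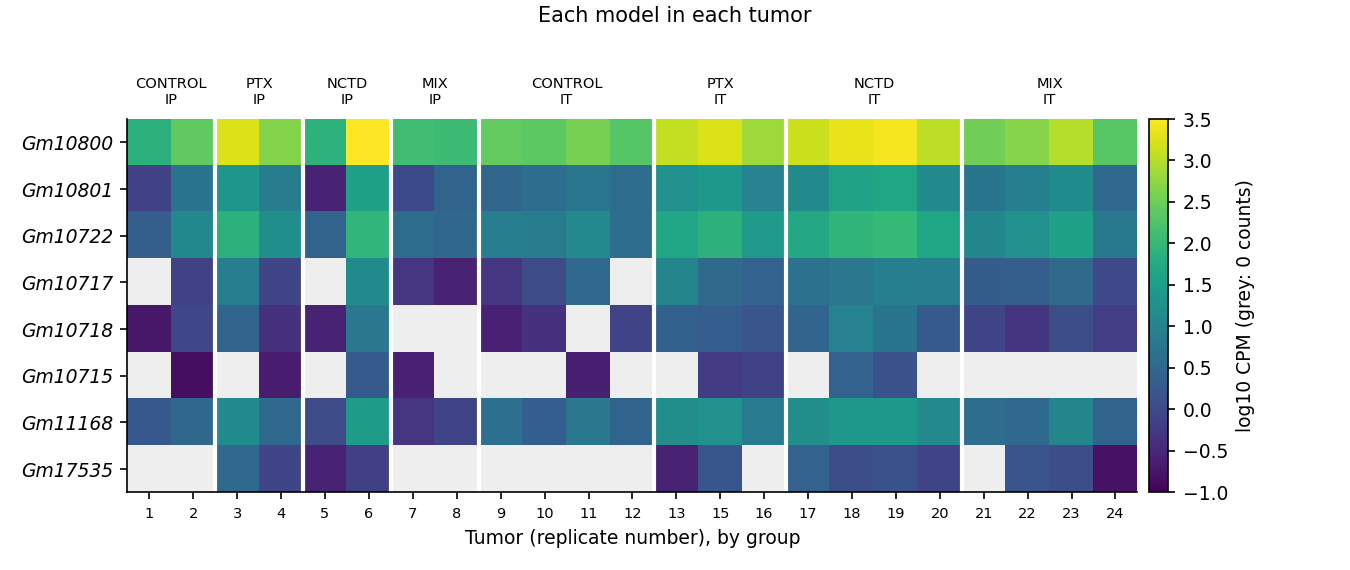
Level of each of the 8 models (log10 CPM, colour) in each of the 23 tumors, grouped by route and treatment, with 0 counts in grey. Gm10800, Gm10722, Gm10801 and Gm11168 brighten in largely the same tumors, and Gm10715 and Gm17535 are at 0 in many. Gm10717 and Gm10718 follow less closely, with Gm10717 at 11.1 CPM in PTX_IT replicate 13 and 3.53 CPM in replicate 15.

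Gm10722 had the highest fitted value of the 6 models in PTX_IT and MIX_IT, and the second highest after Gm10718 in NCTD_IT. It was at 8.48, 7.87, 13.3 and 4.24 CPM in CONTROL_IT, at 45.6, 77.4 and 26.4 CPM in PTX_IT, at 51.2, 86.3, 103 and 44.4 CPM in NCTD_IT, and at 11.7, 19.2, 37.7 and 6.65 CPM in MIX_IT. It differed from the control by a log2 value of 3.06 (SE 0.51) in NCTD_IT, 2.54 (SE 0.52) in PTX_IT and 1.13 (SE 0.50) in MIX_IT. The order of the tumors within each drug group was that of Gm10800. Gm10801 was at 3.08, 4.15, 5.78 and 3.95 CPM in CONTROL_IT, at 18.6, 25.1 and 9.74 CPM in PTX_IT, at 14.2, 38.9, 44.1 and 13.6 CPM in NCTD_IT, and at 5.55, 8.88, 15.7 and 3.49 CPM in MIX_IT. It differed from the control by a log2 value of 2.69 (SE 0.51), 2.05 (SE 0.54) and 0.97 (SE 0.51) in the same order of groups. The value of Gm10801, with the repeat in 34.5% of its span, thus lay within the range of the models that are made of it throughout.

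The values of all 6 models that passed the filter were above 0 in each IT comparison. They lay between 2.34 (Gm11168) and 3.63 (Gm10718) in NCTD_IT, with a median of 2.76 against 0.03 over the 12480 genes tested. In PTX_IT they lay between 1.84 (Gm11168) and 2.54 (Gm10722), with a median of 2.16 against 0.02, and in MIX_IT between 0.45 (Gm11168) and 1.13 (Gm10722), with a median of 0.94 against 0.01. A log2 fold change above 2 was found for 2.23% of all genes in NCTD_IT, 1.06% in PTX_IT and 1.11% in MIX_IT. Every treated tumor was above every control tumor for 7 of the 8 models in NCTD_IT (7.8% of the genes tested), for 5 in PTX_IT (3.79%) and for 0 in MIX_IT (4.91%). Since the same tumors chose the list, nothing is read from these counts.

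Gm17535 was at 0 counts in all 6 control tumors of both routes. It had 26 counts in NCTD_IT, in 4 of 4 tumors, and 16 in MIX_IT, in 3 of 4, whereas PTX_IT had 6 counts in 2 of 3. Set against a floor of 3 counts over the control group, the pooled level was at least 8.74-fold higher in NCTD_IT and 4.01-fold in MIX_IT. These limits rest in part on single tumors, and without NCTD_IT replicate 17 (15 counts) and MIX_IT replicate 22 (10 counts) they fell to 5.82-fold and 2.16-fold. In PTX_IT 5 of the 6 counts were in replicate 15, and the 1 count left without it is under the floor. By the IP route PTX_IP had 27 counts, at least 9.44-fold higher, of which 23 were in replicate 3, and without it the limit was 3.44-fold. NCTD_IP had 1 and 3 counts, at or under the floor in both tumors. Of the chromosome 9 models it is the least unique in sequence, with 26.1% of its windows found once. Gm10715 had at most 9 counts in any tumor, with 13 counts in NCTD_IT, 8 in NCTD_IP, 5 in PTX_IT, 0 in MIX_IT and 1 in each of the other 4 groups.

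**Figure D4:**
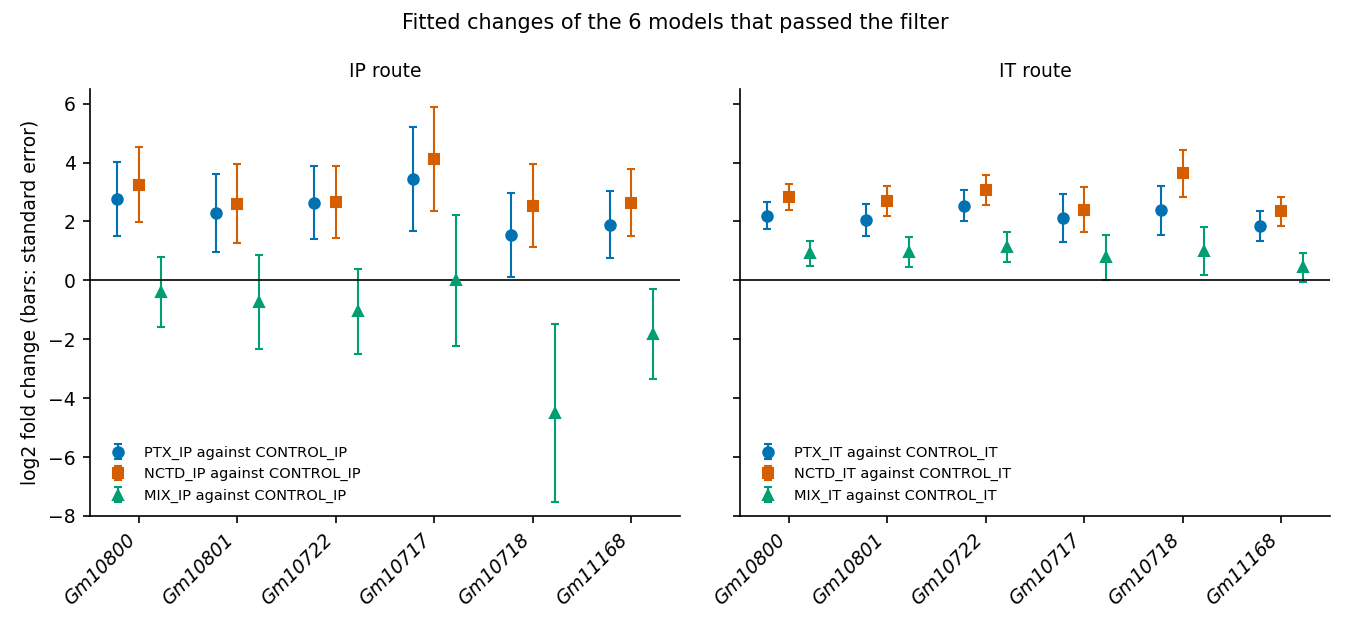
Fitted log2 fold change against the control of the route (y axis, bars are standard errors) for the 6 models that passed the filter, in PTX (blue), NCTD (orange) and MIX (green) tumors. The IP bars are wide, with SE of at least 1.13, and the IT values of MIX lie below those of the single drugs for each model.

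While the total moved 38.6-fold between the lowest and the highest tumor, the make-up of the satellite counts varied by a few percent of them. The share on Gm10800 lay between 91.7% (exact 95% interval 90.3 to 92.9%) in CONTROL_IP replicate 2 and 95.5% (93.3 to 97.1%) in MIX_IP replicate 7. The share on the 6 chromosome 9 models reached 6.38% (5.30 to 7.60%) in CONTROL_IP replicate 2 and was lowest in MIX_IP replicate 8, with 16 of 457 counts (2.01 to 5.62%). In NCTD_IP replicate 6 and CONTROL_IP replicate 1, the highest and the lowest tumor, Gm10800 took 94.3% (93.9 to 94.7%) and 94.0% (91.3 to 96.0%). Per 100 counts on Gm10800 there were 2.08 to 5.00 counts on Gm10722. Models summed per chromosome differed by 2.82 on the log2 scale (SE 0.44) on chromosome 2 and 2.90 (SE 0.47) on chromosome 9 in NCTD_IT, and of 2.20 (SE 0.45) and 2.36 (SE 0.49) in PTX_IT. Over the 23 tumors, the level of Gm10800 had a Spearman correlation of 0.995 with Gm10722, 0.979 with Gm10801, 0.967 with Gm11168, 0.926 with Gm10717, 0.865 with Gm10718, 0.713 with Gm17535 and 0.480 with Gm10715. These are descriptions of tumors that share groups and libraries, and the order follows the number of reads on each model.

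There are 13 other rows of the table that overlap a match to the unit, and 3 of them are models of the chromosome 9 array. Of these, Gm10719 had 37 of its 99 counts in NCTD_IP replicate 6 and a Spearman correlation of 0.73 with Gm10800. Among genes elsewhere that hold a piece of the repeat and passed the filter over all tumors, the correlation was -0.27 for Mdga2, -0.02 for 2210408I21Rik, -0.41 for Litaf and -0.38 for Cdk5rap2. In NCTD_IT their log2 fold changes lay between -0.50 (Litaf, standard error 0.27) and 0.08 (Mdga2, standard error 0.41).

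Genes of pericentromeric heterochromatin were examined as a list of 28, of which 26 were tested. By edgeR 0 of the 26 were called in any of the 6 comparisons, and the list's median log2 fold change lay between 0.03 and 0.14, against -0.01 to 0.03 over all genes, where 1.37% of all genes were called in NCTD_IT and 0% in PTX_IT and in MIX_IT. In NCTD_IT, where the satellite sum was highest, the lowest values were those of Sirt6, a histone deacetylase known to keep the repeats silent, at -2.60 (SE 0.97, adjusted p = 0.139 in edgeR), and Trim28, a corepressor that recruits histone methylation, at -0.57 (SE 0.19, adjusted p = 0.0984 in edgeR). Sirt6 is a weakly expressed gene, at 0.572 ± 0.488 CPM in NCTD_IT and 3.46 ± 1.90 CPM in CONTROL_IT (SD, n = 4 each). The highest were those of Morc3, at 1.00 (SE 0.33, adjusted p = 0.104 in edgeR), and the maintenance DNA methyltransferase gene Dnmt1, at 0.91 (SE 0.29, adjusted p = 0.0863 in edgeR). Dnmt1 was at 0.87 (SE 0.29, adjusted p = 0.208 in edgeR) in MIX_IT. In PTX_IT Sirt6 was at -0.92 and Trim28 at -0.52 (SE 0.95 and 0.20), with Kmt5c highest at 1.22 (SE 0.85). In the IP comparisons the lowest and the highest were Suv39h2 at -0.42 and Dnmt3b at 1.19 in NCTD_IP, Morc3 at -0.54 and Hmga1 at 0.93 in PTX_IP, and Morc3 at -0.41 and Dnmt3b at 0.99 in MIX_IP, with SE between 0.38 and 0.66.

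RNAs that stay in the nucleus had a summed level of 975 to 1769 CPM in NCTD_IT, against 320 to 429 CPM in CONTROL_IT. PTX_IT replicate 16, with a satellite sum above every control, had 351 CPM of them, within the control range. Of the 7 tested in the list of 8, 3 passed in NCTD_IT and 7 of 7 had a value above 0. The median log2 fold change was 1.64 against 0.03 over all genes. Of the 12480 genes tested, 1.37% were called in NCTD_IT and 0% in PTX_IT and in MIX_IT. Malat1, a long noncoding RNA of nuclear speckles, rose by 2.49 (SE 0.45, adjusted p = 0.0280 in edgeR), and Neat1, the scaffold of paraspeckles, rose by 1.54 (SE 0.28, adjusted p = 0.0280 in edgeR). The third was Xist, described with the sex-linked genes. Without CONTROL_IT replicate 11, CONTROL_IT replicate 12 or NCTD_IT replicate 18, edgeR called 0 genes of the table in NCTD_IT, so that these and the other NCTD_IT calls named here ended. An unadjusted p below 0.05 was then reached by 2217, 2048 and 2093 genes. Without CONTROL_IT replicate 9 or NCTD_IT replicate 17, edgeR called 1 gene each. The 1 call without CONTROL_IT replicate 9 was of a lower gene, so that Malat1, Neat1 and Xist lost theirs there too. Without NCTD_IT replicate 19, NCTD_IT replicate 20 or CONTROL_IT replicate 10 it called 71, 126 and 191 genes. In PTX_IT 0 of 7 passed, with a median of 0.91, and in MIX_IT 0 of 7, with a median of 0.93, in which Meg3 was highest at 3.86 (SE 1.06). By the IP route 0 of 6 passed in any comparison and the medians lay between -0.10 and 0.07. In the 2 IP tumors with the highest satellite level Malat1 was at 109.9 CPM (PTX_IP replicate 3) and 177 CPM (NCTD_IP replicate 6), with 108 and 147 CPM in the controls. Neat1 was at 523 and 645 CPM in these tumors, with 400 and 391 CPM in the controls. The summed nuclear RNAs were at 763 and 960 CPM, with 618 and 671 CPM in the controls. For Neat1 and for the sum these were the highest levels of the IP tumors. MIX_IT replicates 23 and 24 had 496 and 274 CPM of Malat1 with a satellite sum of 1061 and 229.9 CPM. Whether RNA of the nucleus made up more of some libraries was not tested.

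The ribosomal DNA rows stood high in part of the tumors with high satellite counts. These rows collect reads of ribosomal RNA, another repeated sequence, and 4 of the 8 listed are in the table. Precursor and mature ribosomal RNA were not told apart. Of those tested 0 were called by edgeR in any of the 6 comparisons, and over all genes 0 to 171 were called. Rn18s-rs5, with the highest level of them, was at 9848 ± 1233 CPM in CONTROL_IT and 16634 ± 2482 CPM in NCTD_IT (SD, n = 4 each), ranges that do not overlap, and differed by 0.76 on the log2 scale (SE 0.30, adjusted p = 0.155 in edgeR). It was at 14163 ± 6276 CPM in PTX_IT (SD, n = 3) and 12531 ± 5633 CPM in MIX_IT (SD, n = 4). By the IP route it was at 9590 ± 4009 CPM in CONTROL_IP and 16369 ± 2658 CPM in PTX_IP (SD, n = 2 each), whose ranges do not overlap. Every treated tumor was above every control tumor for 7.8% of the genes tested in NCTD_IT and 15.7% in PTX_IP. The tumors did not keep one order for both measures. PTX_IT replicate 16 had 6919 CPM of Rn18s-rs5 and a satellite sum of 742 CPM, and PTX_IP replicate 4 had 18248 CPM and 491 CPM. The part of these RNAs in the satellite result was not tested.

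**Figure D5:**
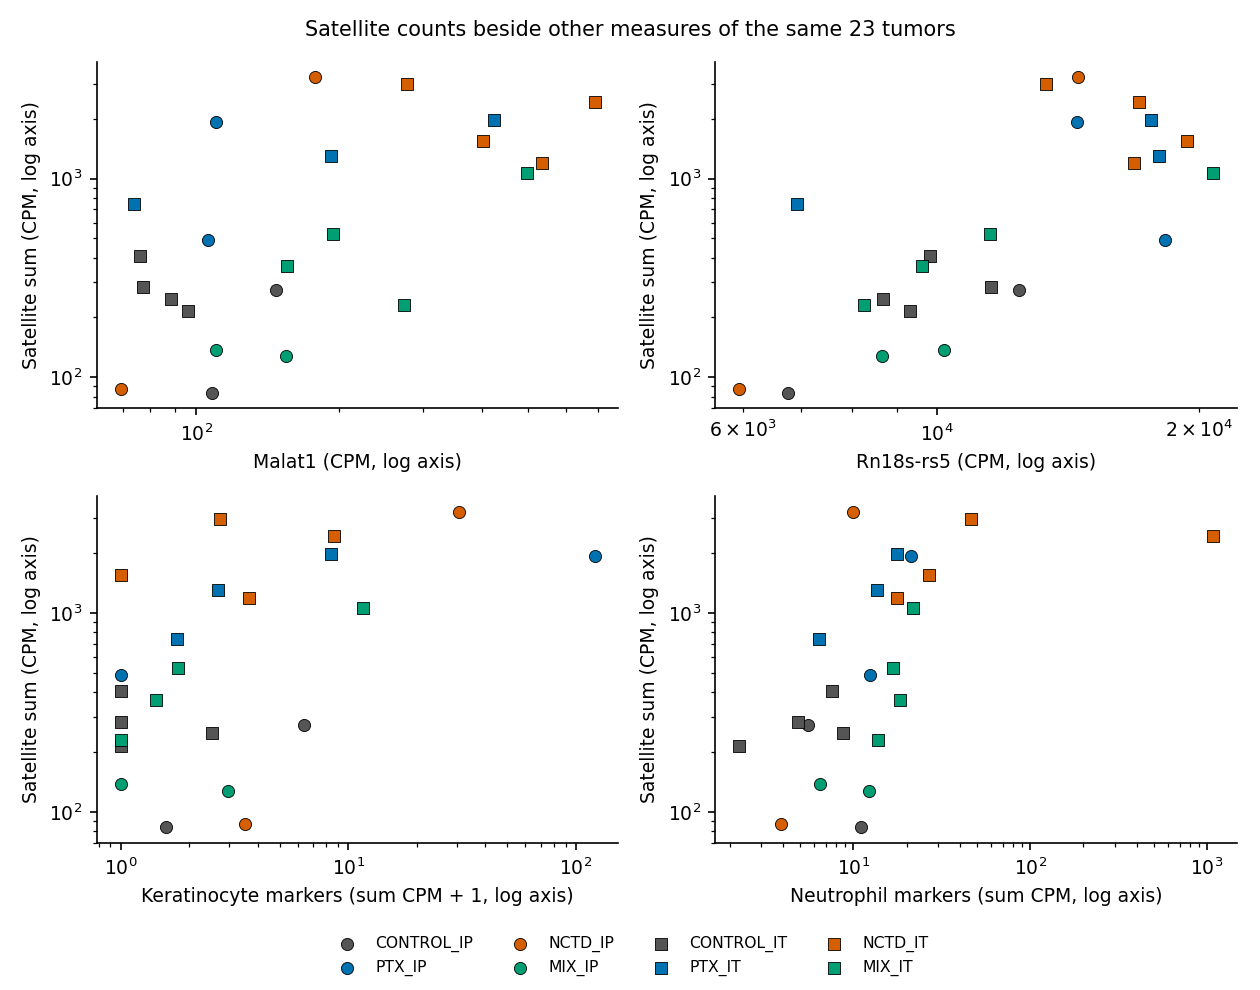
Summed satellite level (CPM, log axis) against Malat1, Rn18s-rs5, the keratinocyte markers (with 1 CPM added) and the neutrophil markers (CPM, log axes) in the 23 tumors, with circles for IP and squares for IT. The 2 IP tumors with the highest satellite level, at 1927 and 3231 CPM, have 109.9 and 177 CPM of Malat1 and the highest keratinocyte marker levels of all tumors. Neat1, not drawn, was at 523 and 645 CPM in them, the highest levels of the IP tumors.

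Markers of other cells also differed between the tumors. The 5 keratinocyte markers summed to 120 CPM in PTX_IP replicate 3 and 29.8 CPM in NCTD_IP replicate 6, the IP tumors with the highest satellite level, and to 0 to 10.6 CPM in the other 21 tumors. NCTD_IT replicates 18 and 19 and PTX_IT replicate 15 had satellite sums of 2428, 2982 and 1974 CPM, above that of PTX_IP replicate 3. Their keratinocyte markers summed to 7.61, 1.72 and 7.39 CPM. In replicate 3 the counts were 363 for Krt14, 239 for Krt5, 190 for Krt10, 10 for Trp63 and 2 for Krt1, and in replicate 6 they were 47, 42, 35, 0 and 1. The neutrophil markers summed to 26.9, 1085, 46.2 and 17.6 CPM in NCTD_IT (replicates 17 to 20). They summed to 6.41 to 17.7 CPM in PTX_IT and 13.8 to 21.8 CPM in MIX_IT, against 2.26 to 8.75 CPM in CONTROL_IT. Of the 3 tested, 2 rose in NCTD_IT, S100a8 and S100a9 (log2 fold changes 5.60 and 6.63, adjusted p = 0.0363 for both in edgeR). The level of the group, 294 ± 528 CPM (SD, n = 4), lay mostly in replicate 18, without which edgeR called 0 genes. With all tumors, 1.37% of the genes tested were called in NCTD_IT. The fibroblast markers summed to 390 to 1675 CPM in NCTD_IT and 108 to 367 CPM in CONTROL_IT, and reached 8551 CPM in MIX_IT replicate 23, the tumor of MIX_IT with the highest satellite level. The endothelial markers did not overlap, at 61.0 to 124 CPM in NCTD_IT and 31.6 to 55.9 CPM in CONTROL_IT, and 0 of the 4 tested were called. Of the genes tested, 7.8% had every NCTD_IT tumor above every CONTROL_IT tumor. The erythroid markers were at 257 to 1355 CPM in NCTD_IT and 1236 to 6930 CPM in CONTROL_IT, with 0 of 4 called. The macrophage markers overlapped, at 156 to 552 CPM in NCTD_IT and 42.4 to 316 CPM in CONTROL_IT. Of the pigment cell markers, Mitf fell by 0.86 on the log2 scale in NCTD_IT (SE 0.18, adjusted p = 0.0363 in edgeR). Of the 13 protein-coding genes of the mitochondrial genome, 1 passed in NCTD_IT, mt-Cytb at 1.14 (SE 0.26, adjusted p = 0.0444 in edgeR). The part of other cells in the satellite result was not tested.

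Sex-linked transcripts also differed between the IT groups, with the single drug groups on one side and CONTROL_IT and MIX_IT on the other. The satellite sums of PTX_IT and MIX_IT overlapped, with 742 CPM in PTX_IT replicate 16 and 1061 CPM in MIX_IT replicate 23. Xist, the RNA of the inactive X chromosome of female cells, had 15 to 51 counts in the 4 NCTD_IT tumors and 5 to 36 in the 3 PTX_IT tumors, against 0 to 2 in CONTROL_IT and 0 in MIX_IT. The 4 Y-linked genes together had 0 to 2 counts in NCTD_IT and in PTX_IT, against 10 to 96 in CONTROL_IT and 79 to 217 in MIX_IT. Xist rose in NCTD_IT by 5.41 (SE 0.96, adjusted p = 0.0280 in edgeR), and the Y-linked gene Ddx3y fell by 5.75 (SE 0.98, adjusted p = 0.0280 in edgeR). Eif2s3y, at 0 counts in all 4 NCTD_IT tumors, also passed (adjusted p = 0.0363 in edgeR). Of the IP tumors, CONTROL_IP replicate 2 alone had Xist counts (55), and the 2 tumors with the highest satellite level had 0 Xist counts and 100 and 110 Y-linked counts. The study describes its treatment groups as sex-matched, but by these transcripts the sequenced tumors of the IT groups were not. In the IT comparisons of single drugs the sex of the host, as these transcripts show it, and the drug cannot be told apart.

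The genes whose pattern over the 23 tumors was most like that of Gm10800, members apart, were named from 13388 rows by Spearman correlation of log2 CPM. The highest was Gm45606, a long noncoding RNA gene at chr11:75421102-75423897, with 0.82 and a level between 0.256 and 5.27 CPM. It was followed by Cdk11b (0.81), which encodes a kinase of transcription and splicing, Hdac4 (0.79), a histone deacetylase gene, and Ebp (0.79), of sterol synthesis. Next were Csnk2a1 (0.78), Sgsm2 (0.77), Mical3 (0.77), 5330432J10Rik (0.76), Ercc2 (0.76), which encodes a helicase of DNA repair, and P2rx4 (0.75). A correlation above 0.7 was found for 0.403% of the rows, whose median was 0.01. Over all 23 tumors 7 members passed the filter. Gm10722, Gm10801, Gm11168, Gm10717 and Gm10718 had a higher correlation with Gm10800 than any of these genes, and Gm17535, at 0.713, a lower one. Of the 10 named genes, 7 stayed in the list by Pearson's correlation, 2 after subtraction of the group means and 2 in the IT tumors alone.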

How the data were processed

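Tumor RNA was sequenced from the 3′ end of messenger RNA as paired reads. The deposited table holds whole-number counts per gene for 23 tumors, which the authors made with Trimmomatic, STAR 2.7.11b and GRCm39. The strand setting, the treatment of reads with several alignments and the use of molecular identifiers are not given in the sources used here. All count columns were mapped to samples by name. Counts were filtered (filterByExpr) and tested per route with the quasi-likelihood test of edgeR 4.0.16 in R 4.3.3, with Benjamini-Hochberg adjustment over all genes tested, 12424 for IP and 12480 for IT. Standard errors are the log2 fold change divided by the square root of F. DESeq2 1.42.0 was an alternative. The sum of the 8 models was fitted as 1 row in place of them. Repeats were located with BLAST 2.17.0. The scripts were tested on simulated data, in which 73% (NCTD_IP) and 99% (NCTD_IT) of 200 genes changed by a log2 value of 2 were called among 12278 and 12100 genes. Of the unchanged genes, 5 and 13 were called. The simulation gave every gene the same spread and changed only genes above a set mean count. Its shares therefore do not say how often such a change would be called in these tumors. Members, gene lists and alternatives were chosen with earlier results of these data known. Named genes are the 8 members, the rows within 50 kb of them, the extremes and calls of the lists, and the 10 genes with the highest Spearman correlation with Gm10800.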

Additional observations from a re-analysis of the deposited data

Results flagged for a closer look

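In groups of 4 tumors, the gap of the highest or lowest tumor to the next was divided by the range of the group and compared with the critical value of Dixon's test at the 95% level. Of 25 such tests 2 passed, and chance passes about 1 in 20. Gm10715 in CONTROL_IT had a ratio of 1, from 1 count in replicate 11 (0.251 CPM) and 0 in the other tumors, which is under the floor of 3 counts. Gm11168 in MIX_IT had a ratio of 0.856, with 11.4 CPM in replicate 23 and 2.83 to 4.06 CPM in the other 3 tumors.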

How the results depend on the processing

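The IP values rest on single tumors. Without NCTD_IP replicate 6 the log2 fold changes of NCTD_IP turned below 0, and over the left-out tumors they ran from -1.02 to 4.31 for the sum, -0.98 to 4.31 for Gm10800, -3.36 to 4.60 for Gm10801, -1.41 to 4.36 for Gm10722, -4.06 to 8.08 for Gm10717, -0.93 to 3.95 for Gm10718 and -1.10 to 3.57 for Gm11168. In PTX_IP Gm10718 ran from -0.37 (without PTX_IP replicate 3) to 2.95. In MIX_IP the ranges were -1.04 to 0.68 for the sum, -0.99 to 0.69 for Gm10800, -1.56 to 1.28 for Gm10801, -1.77 to 0.65 for Gm10722 and -0.84 to 3.97 for Gm10717. Gm11168 in MIX_IT ran from -0.20 (without replicate 23) to 0.78. With no filter on low counts the sum was called in NCTD_IP (3.21, SE 0.24, adjusted p = 1.35e-37 in edgeR) and PTX_IP (2.75, SE 0.23, adjusted p = 7.34e-28 in edgeR), and Gm10717 in MIX_IP was at -0.011. These SE are far below those of the filtered fit, so the p-values do not measure the spread between tumors. The genes called were then 71, 71 and 51 in NCTD_IP, PTX_IP and MIX_IP, of 23653 tested. They were 1190, 222 and 364 in NCTD_IT, PTX_IT and MIX_IT, of 26878 tested. The cause was not tested. DESeq2 called 11, 4, 12, 1380, 15 and 230 in the same order. Fits of the 2 groups alone called 2 in NCTD_IP, 2 in MIX_IP and 946 in NCTD_IT, and a fit of all 23 tumors called 777 in NCTD_IT and 9 in MIX_IT. Leaving out a tumor gave 0 to 3, 0 to 1 and 0 to 1 genes for NCTD_IP, PTX_IP and MIX_IP, and 0 to 191 and 0 to 3 for NCTD_IT and MIX_IT. Of the genes most like Gm10800, 2 stayed with group means subtracted and 2 in the IT tumors. No paired analysis was possible because no replicate number occurs in more than 1 group.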
